A study of Mus musculus with 6 samples.

Results

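Collagens are extracellular proteins built from 3 chains wound into a triple helix, and each chain is the product of its own gene. The genes described here are the collagen chain genes of the mouse, taken by rule: every gene that GENCODE release M21 annotates as protein coding and whose symbol is Col, a number, the letter a and a number. The rule found 44 genes among the 18951 in the count table, which is 0.232% of the genes listed. RNA was sequenced from primary cultures made from the hearts of C57BL/6J mice taken 1 day after birth, 48 h after siRNA transfection. The 3 si-Rbm22 cultures received an siRNA against Rbm22, which encodes a spliceosome protein, and the 3 si-Control cultures received a scrambled siRNA. The labels name no other allele or agent in either group, and describe the cells as cardiomyocytes whose purity was checked by c-TnT staining.

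Fibrillar collagens (types I, II, III, V, XI, XXIV and XXVII) assemble into the cross-striated fibrils that give connective tissue its tensile strength. Type IV forms the network of basement membranes, the sheets on which epithelia, endothelia and muscle fibres rest, and type VI forms beaded filaments between the sheets and the fibrils. The FACIT collagens sit on the surface of fibrils, the transmembrane collagens are anchored in the cell membrane, and the multiplexins lie at the edge of basement membranes. In the heart, fibroblasts are the main source of the fibrillar types I and III, whereas cardiomyocytes are wrapped in a basement membrane that contains type IV.

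The si-Rbm22 libraries held 36860678 to 37344860 reads and the si-Control libraries held 34269042 to 35955301. Rbm22 itself had 533, 466 and 491 reads in the si-Rbm22 libraries, against 798, 916 and 774 in the si-Control libraries, a log2 fold change of −0.78 (SE 0.097, adjusted p = 4.22e-06). The defining markers of the labelled cell type were nearly absent from 1 group. The summed level of 10 cardiomyocyte markers was 23261 to 36750.0 CPM (read counts relative to the TMM-scaled library total) in the si-Rbm22 libraries, against 40.4 to 46.3 CPM in the libraries labelled si-Control, where Myl2, Myl7, Mybpc3, Nppa and Pln had 0 reads. Markers of other cells moved as well, and all 10 endothelial, all 8 epicardial and mesothelial and all 7 macrophage markers were higher in si-Rbm22. Of 11 fibroblast markers, 4 were higher and 6 lower, with summed levels of 1265 to 1630 CPM in si-Rbm22 libraries, against 2076 to 2155 CPM in si-Control libraries. Over all genes tested as described below, 43.1% were higher and 38.9% lower at an adjusted p under 0.05, so this split says little. All 6 tested markers of skeletal muscle precursors were lower, and Myod1, Myf5 and Cdh15 had 0 reads in the si-Rbm22 libraries. Each of the 3 si-Control libraries stood apart in this way, so no result below could be given without them, and the siRNA and the cell content of the cultures cannot be told apart. For every gene, fewer cells of a type and less RNA per cell cannot be told apart either. The labels call the 3 cultures of a group biological replicates without saying whether they came from separate isolations, so each p reflects only how far these cultures spread, which may be technical.

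Collagen chains took up a smaller part of the reads in si-Rbm22 cultures, and a different set of chains made up that part. The fibrillar chains and the type VI chains were lower, while all 6 chains of basement membrane type IV were higher. Reads on the 44 genes amounted to 1.15%, 1.19% and 1.22% of all reads in the si-Rbm22 libraries, against 3.47%, 3.55% and 3.29% in the si-Control libraries. The groups did not overlap, and the mean share was 1.19 ± 0.0346% in si-Rbm22 and 3.44 ± 0.132% in si-Control (SD, n = 3 each; exact permutation test, two-sided, p = 0.1, the smallest p that 3 against 3 allows). Fibrillar chains held 49.2 ± 0.575% of the collagen reads in si-Rbm22, against 75.1 ± 0.187% in si-Control. Type IV chains held 42.4 ± 1.14% of the collagen reads in si-Rbm22, against 3.19 ± 0.0204% in si-Control. Type VI chains held 2.13 ± 0.245% of them in si-Rbm22, against 16.3 ± 0.0734% in si-Control. These are shares of reads, to which a long transcript contributes more than a short one.

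**Figure D1:**
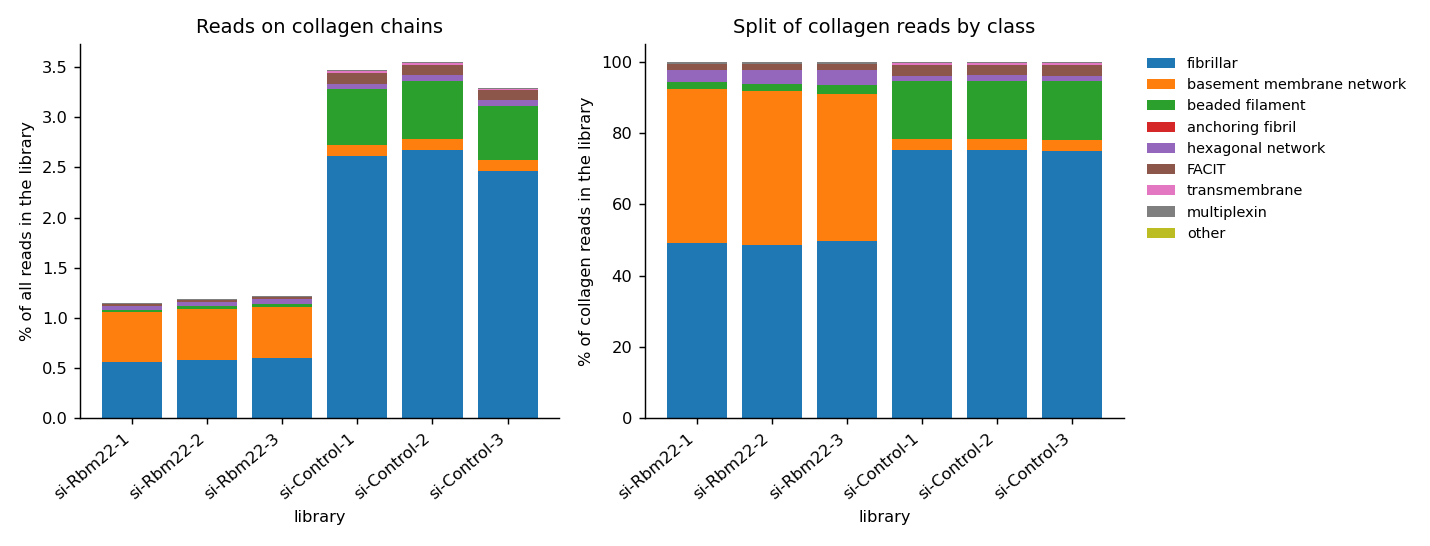
Reads on collagen chain genes by class in each of the 6 libraries, as a percentage of all reads (left) and of the collagen reads (right); each stacked colour is a class. Bars of si-Rbm22 libraries reach 1.15% to 1.22% on the left, those of si-Control libraries 3.29% to 3.55%, and the type IV segment on the right is wide only in si-Rbm22 libraries.

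Of the 44 genes, 38 passed the filter on low counts and were tested together with all other genes. At an adjusted p under 0.05 (Benjamini-Hochberg adjusted over all 14621 genes tested with the edgeR quasi-likelihood test), 12 were higher and 22 lower in si-Rbm22, and 4 did not pass. Calls were common everywhere in this comparison: 82.0% of all tested genes passed, 43.1% higher and 38.9% lower, so a call by itself says little about a collagen gene. By size, at least 4-fold lower were 15 of the 38 collagen genes, against 8.84% of all tested genes, and at least 4-fold higher were 9 of the 38, against 17.2% of all. The median log2 fold change (si-Rbm22 over si-Control) was −1.07 over the 38 collagen genes and 0.05 over all tested genes. The collagen median depends on which rare members are tested: it was −0.63 over 41 members without si-Rbm22 replicate 3, and −0.65, −0.72 and −0.69 over 42 members without si-Control replicate 1, 2 or 3. It was −0.58 over all 44 with no filter on low counts and −0.54 over 44 with DESeq2, where the median of all genes was 0.14 and 0.18. The 3 libraries of each group lay apart from those of the other group for 34 of the 38 genes, against 84.2% of all tested genes. The mean reached 10 CPM in either group for 25 members, lay between 1 and 10 CPM for 9 and stayed below 1 CPM for 10.

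**Figure D2:**
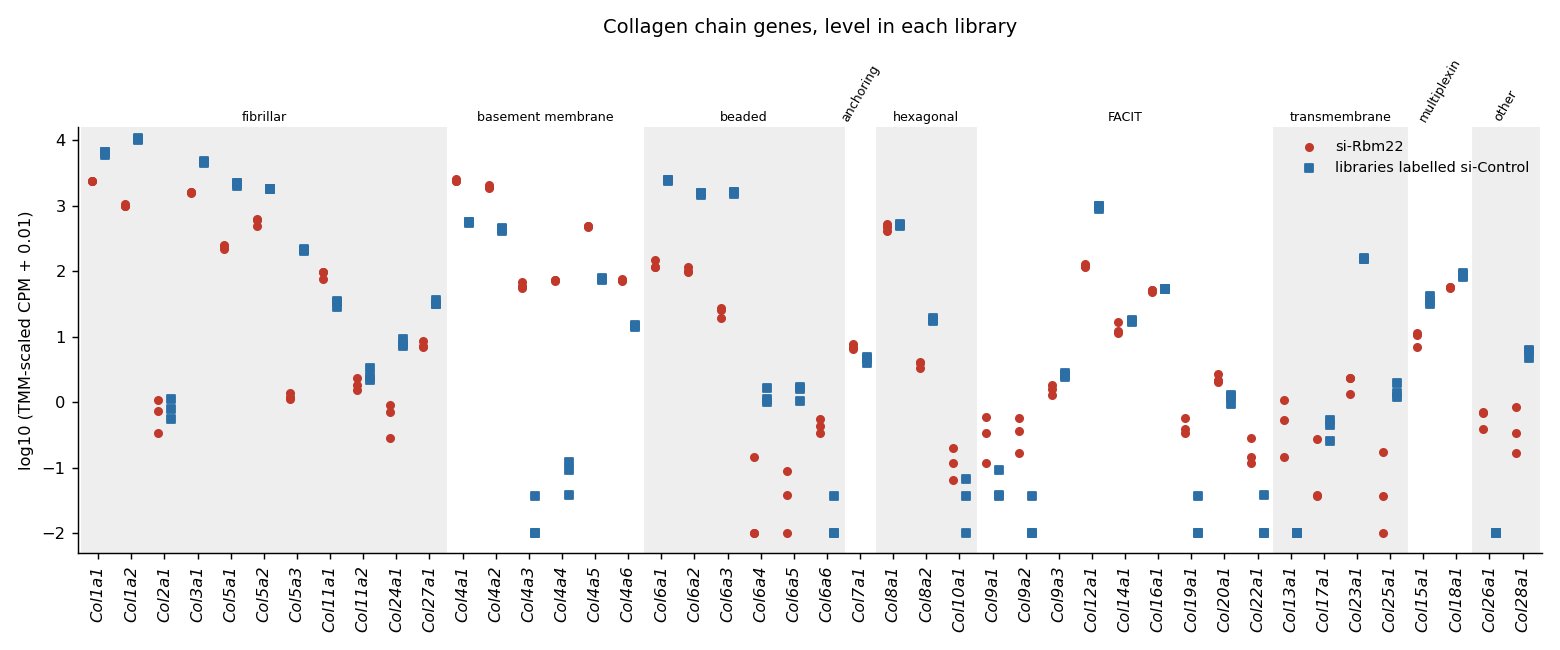
Level of each of the 44 collagen chain genes in each library, as log10 of the scaled CPM plus 0.01, grouped by collagen class; red circles are si-Rbm22 libraries and blue squares the libraries labelled si-Control. Points at −2 are libraries with 0 reads, and red lies above blue for all 6 type IV chains and below it for Col1a1, Col1a2, Col3a1 and the type V and main type VI chains.

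Type IV collagen forms the network of basement membranes. All 6 of its genes were called higher, each by more than 4-fold, with a median log2 fold change of 2.50. Their reads summed to 0.503 ± 0.00930% of all reads in si-Rbm22 libraries and 0.110 ± 0.00361% in si-Control libraries (SD, n = 3 each). The 6 genes lie in 3 head-to-head pairs, in which the genes are read away from each other. Their start regions are shown because the pairs moved together: the window runs from 250 bases before to 50 bases after the RefSeq start on GRCm38.p6, 5′ to 3′ on the strand of the gene, and capitals mark the CCAAT box and the GC box GGGCGG, on either strand. The windows of Col4a1 (chr8:11312777-11313076, minus strand) and Col4a2 (chr8:11312555-11312854, plus strand) share 78 bases, since the starts are 21 bases apart.
Col4a1: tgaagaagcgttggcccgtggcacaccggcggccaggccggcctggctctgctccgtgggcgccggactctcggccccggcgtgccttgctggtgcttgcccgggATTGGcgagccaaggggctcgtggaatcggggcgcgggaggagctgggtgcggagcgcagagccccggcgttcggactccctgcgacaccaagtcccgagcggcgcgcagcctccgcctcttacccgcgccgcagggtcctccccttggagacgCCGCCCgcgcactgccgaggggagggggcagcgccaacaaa
Col4a2: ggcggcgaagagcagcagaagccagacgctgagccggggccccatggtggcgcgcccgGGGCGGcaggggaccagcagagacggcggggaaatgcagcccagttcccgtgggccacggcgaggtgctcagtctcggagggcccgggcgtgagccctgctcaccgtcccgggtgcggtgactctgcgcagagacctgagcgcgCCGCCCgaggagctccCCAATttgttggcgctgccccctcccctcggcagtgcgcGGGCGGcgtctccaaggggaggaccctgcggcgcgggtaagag

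Col4a1 and Col4a2 encode the α1 and α2 chains that form the standard type IV trimer of nearly all basement membranes. Col4a1 (ENSMUSG00000031502, chr8:11198423-11312826, minus strand) had 2417, 2566 and 2391 CPM in the si-Rbm22 libraries, against 559, 570.0 and 538 CPM in the si-Control libraries. This was a log2 fold change of 2.15 (SE 0.058, adjusted p = 3.25e-13). The lowest si-Rbm22 library was more than 4 times as high as the highest si-Control library. Col4a2 (ENSMUSG00000031503, chr8:11312805-11449287, plus strand) had 1939.5, 2045 and 1842 CPM in si-Rbm22, against 445, 457 and 417 CPM in si-Control. Its log2 fold change was 2.14 (SE 0.063, adjusted p = 7.55e-13), within the error of that of its partner. The annotated genes overlap by 22 bases at their starts, which is under 0.5% of the exonic length of either, so reads could be shared only there. Per kilobase of exon, Col4a1 ranked 2 and Col4a2 ranked 3 among the 44 genes in si-Rbm22 libraries, at 329 ± 12.6 and 293 ± 15.3 CPM per kb. In si-Control libraries they ranked 9 and 10, at 74.4 ± 2.21 and 66.5 ± 3.07 CPM per kb.

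The largest fold changes among all collagen genes belonged to Col4a3 and Col4a4, which encode chains of the α3α4α5 trimer known from the kidney glomerulus and mutated in Alport syndrome. Col4a4 (ENSMUSG00000067158, chr1:82448423-82586849, minus strand) had 2653, 2668 and 2652 reads in the si-Rbm22 libraries, against 3, 4 and 1 in the si-Control libraries. That is 72.4 ± 1.74 CPM in si-Rbm22 and 0.0739 ± 0.0414 CPM in si-Control, a ratio of 970.1 (exact 95% counting interval 492 to 2248; adjusted p = 1.93e-15). Col4a3 (ENSMUSG00000079465, chr1:82586921-82722059, plus strand) had 2180, 2475 and 2101 reads in si-Rbm22, against 0, 1 and 0 in si-Control. With 1 read in the whole si-Control group the ratio of 6576 has a counting interval of 1180 to 259793, so its size is poorly known, although the gene was called (adjusted p = 1.69e-14). The fitted log2 fold change was 12.23, and 14.11 without si-Control replicate 2, which holds that read. Both genes were therefore close to undetected in si-Control libraries and at a moderate level in si-Rbm22 libraries. They lie head to head, 71 bases apart. Per kilobase of exon they stayed far below the standard chains, at 6.16 CPM per kb for Col4a3 and 6.82 CPM per kb for Col4a4 in si-Rbm22. The window of Col4a4 (chr1:82586800-82587099, minus strand) contains neither motif.
Col4a4: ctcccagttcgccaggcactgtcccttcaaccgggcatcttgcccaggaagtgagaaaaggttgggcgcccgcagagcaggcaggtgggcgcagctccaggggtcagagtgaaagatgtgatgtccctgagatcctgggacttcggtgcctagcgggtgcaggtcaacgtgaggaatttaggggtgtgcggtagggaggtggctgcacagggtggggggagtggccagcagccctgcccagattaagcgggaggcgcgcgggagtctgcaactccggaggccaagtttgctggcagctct

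Col4a5 encodes the remaining chain of that trimer, and Col4a6 pairs with it in the basement membranes of smooth muscle and skin. Col4a5 (ENSMUSG00000031274, chrX:141475385-141689234, plus strand) had 491, 464 and 484 CPM in si-Rbm22 libraries, against 73.8, 79.0 and 76.1 CPM in si-Control libraries. It rose by a log2 fold change of 2.65 (SE 0.059, adjusted p = 3.94e-14), and the groups were far apart. Col4a6 (ENSMUSG00000031273, chrX:141165403-141474076, minus strand) had 69.7, 76.8 and 72.8 CPM in si-Rbm22, against 15.01, 13.8 and 14.4 CPM in si-Control. The log2 fold change was 2.34 (SE 0.073, adjusted p = 1.28e-12). Unlike the α3 and α4 genes, both were clearly expressed in si-Control libraries, with at least 499 reads in each of the 6 libraries. The annotated genes lie head to head, 1308 bases apart, and the windows of Col4a6 (chrX:141474027-141474326, minus strand) and Col4a5 (chrX:141475169-141475468, plus strand) do not meet.
Col4a6: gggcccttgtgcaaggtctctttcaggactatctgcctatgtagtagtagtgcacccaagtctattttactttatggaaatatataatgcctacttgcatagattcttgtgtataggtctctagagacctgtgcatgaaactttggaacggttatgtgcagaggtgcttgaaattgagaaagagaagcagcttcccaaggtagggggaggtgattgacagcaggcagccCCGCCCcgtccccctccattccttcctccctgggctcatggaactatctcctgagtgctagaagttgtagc
Col4a5: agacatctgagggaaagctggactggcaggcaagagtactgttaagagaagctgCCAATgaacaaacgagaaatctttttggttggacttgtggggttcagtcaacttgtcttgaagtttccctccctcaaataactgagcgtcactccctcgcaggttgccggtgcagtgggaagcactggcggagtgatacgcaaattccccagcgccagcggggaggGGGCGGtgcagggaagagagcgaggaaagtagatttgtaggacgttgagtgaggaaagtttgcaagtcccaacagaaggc

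The motifs in these windows were not shared by the class. CCAAT occurred once in the windows of Col4a1, Col4a2 and Col4a5 and was not in those of Col4a6 and Col4a4. GGGCGG occurred once in those of Col4a1, Col4a5 and Col4a6, 3 times in that of Col4a2 and not in that of Col4a4. The match in the Col4a1 window lies in the bases shared with the Col4a2 window, so that site is counted in both. For Col4a3 no window was at hand. RefSeq windows were at hand for 35 of the 44 collagen genes, 38 windows in all. CCAAT was in 13 of them (34.2%), against 37.4% of 32851 mouse windows of the same length. GGGCGG was in 23 (60.5%), against 35.7%, and TATAAA in 5 (13.2%), against 13.6%. Both strands were searched, and no CCAAT and GGGCGG match overlapped in the windows printed.

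Markers of cells that lie on or within basement membranes moved in both directions. The 10 endothelial markers summed to 308 to 358 CPM in si-Rbm22 libraries, against 4.87 to 6.40 CPM in si-Control libraries, where Tie1 and Emcn had 0 reads. The 8 epicardial and mesothelial markers summed to 2205 to 2405 CPM in si-Rbm22, against 99.1 to 103 CPM in si-Control, with Upk3b and Upk1b at 0 reads in si-Control. The cardiomyocyte markers given above were higher in si-Rbm22 too. The 6 epithelial markers summed to 299.8 to 360.1 CPM in si-Rbm22, against 16.78 to 18.96 CPM in si-Control, with all 4 tested markers higher. The 5 Schwann markers summed to 86.2 to 95.4 CPM in si-Rbm22, against 1.79 to 2.09 CPM in si-Control, with all 3 tested markers higher. Most of the Schwann sum in si-Rbm22 was Mbp, at 86.9 ± 4.26 CPM. The 8 skeletal muscle precursor markers summed instead to 365 to 525 CPM in si-Rbm22, against 1145 to 1216 CPM in si-Control. All 6 tested markers were lower. Nearly the whole si-Rbm22 sum was Des, at 449 ± 80.1 CPM, against 633 ± 34.6 CPM in si-Control. Chrna1 averaged 0.166 ± 0.241 CPM in si-Rbm22 and 337 ± 7.47 CPM in si-Control. Myog averaged 0.0091 CPM in si-Rbm22 and 36.1 CPM in si-Control, and Myod1, Myf5 and Cdh15 were undetected in si-Rbm22. The 9 smooth muscle and pericyte markers summed to 1485 to 1825 CPM in si-Rbm22, against 3247 to 3272 CPM in si-Control, with 4 higher and 5 lower. Those counts stand beside 43.1% higher and 38.9% lower over all tested genes. The part of these lists in the type IV result was not tested.

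Fibrillar collagens, the main component of the collagen reads in both groups, fell as a class. Of the 11 genes, 8 were lower, all by at least 2-fold, 1 was higher and 2 did not pass, with a median log2 fold change of −1.63. Their reads summed to 0.584 ± 0.0213% of all reads in si-Rbm22 and 2.58 ± 0.105% in si-Control (SD, n = 3 each). Type I collagen, the most abundant protein of tendon, bone and scar, is a trimer of α1 chains with an α2 chain. Col1a1 (ENSMUSG00000001506, chr11:94936224-94953042, plus strand) had 2392, 2382 and 2372 CPM in si-Rbm22 libraries, against 6606, 6555 and 5847 CPM in si-Control libraries. Col1a2 (ENSMUSG00000029661, chr6:4504814-4541544, plus strand) had 991, 981 and 1054 CPM in si-Rbm22, against 10410.2, 10827 and 9919.5 CPM in si-Control. Both fell without overlap, but by different amounts: the log2 fold change was −1.41 for Col1a1 (SE 0.062, adjusted p = 4.83e-11) and −3.36 for Col1a2 (SE 0.064, adjusted p = 9.83e-15). Per kilobase of exon, Col1a1 was the highest collagen gene in both groups, at 363 ± 1.47 CPM per kb in si-Rbm22 and 965 ± 64.7 CPM per kb in si-Control. Col1a2 ranked 5 in si-Rbm22, at 81.2 ± 3.20 CPM per kb, and 2 in si-Control, at 836 ± 36.6 CPM per kb. With the longest transcript as the length, Col1a2 ranked 1 and Col1a1 ranked 2 in si-Control. The start region of Col1a2 (chr6:4505368-4505667, plus strand) is shown because its fall set it apart from its partner chain. No window was at hand for Col1a1, so the motifs of the partner chains cannot be compared. Capitals again mark CCAAT and GGGCGG, each of which occurs 2 times.
Col1a2: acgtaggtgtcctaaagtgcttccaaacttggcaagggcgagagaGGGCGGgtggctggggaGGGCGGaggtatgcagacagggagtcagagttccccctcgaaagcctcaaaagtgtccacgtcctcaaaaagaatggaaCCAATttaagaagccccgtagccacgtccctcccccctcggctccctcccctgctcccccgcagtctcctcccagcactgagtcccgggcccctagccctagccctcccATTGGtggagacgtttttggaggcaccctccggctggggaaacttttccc

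Col3a1 encodes the single chain of type III, which shares fibrils with type I in distensible tissues such as vessel walls. It (ENSMUSG00000026043, chr1:45311538-45349706, plus strand) had 1591, 1627 and 1566 CPM in si-Rbm22, against 4622, 4815 and 4532 CPM in si-Control. The log2 fold change was −1.55 (SE 0.056, adjusted p = 5.86e-12). Because it fell about as much as the collagen total, type III held 13.3 ± 0.243% of collagen reads in si-Rbm22 and 13.7 ± 0.253% in si-Control.

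Type V chains, which sit in the core of type I fibrils and set their diameter, all fell, but unequally. Col5a1 (ENSMUSG00000026837, chr2:27886425-28039514, plus strand) had 220.0, 245 and 249 CPM in si-Rbm22 libraries, against 2179, 2208 and 2021 CPM in si-Control libraries. This was a log2 fold change of −3.16 (SE 0.069, adjusted p = 3.62e-14). Col5a2 (ENSMUSG00000026042, chr1:45374321-45503282, minus strand) had 482, 635 and 611 CPM in si-Rbm22, against 1789, 1780.1 and 1774 CPM in si-Control. It fell less, by 1.63 on the log2 scale (SE 0.091, adjusted p = 7.32e-09), and the spread among its si-Rbm22 libraries was wide. Col5a3 (ENSMUSG00000004098, chr9:20770050-20815067, minus strand), the chain found in the placenta and in fat and muscle, had 1.20, 1.39 and 1.12 CPM in si-Rbm22, against 209, 217 and 200.4 CPM in si-Control. Its log2 fold change of −7.40 (SE 0.091, adjusted p = 2.34e-16) was the steepest fall of the tested collagen genes with all libraries fitted.

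Type XI held the chain that went the other way from most of the class. Col11a1 (ENSMUSG00000027966, chr3:114030540-114220718, plus strand), known for cartilage fibrils and also able to replace a type V chain, had 75.2, 98.0 and 95.8 CPM in si-Rbm22, against 28.6, 33.3 and 35.03 CPM in si-Control. It was the 1 fibrillar gene called higher, with a log2 fold change of 1.47 (SE 0.108, adjusted p = 1.81e-07). Col11a2 averaged 1.89 ± 0.391 CPM in si-Rbm22 and 2.62 ± 0.581 CPM in si-Control (SD, n = 3 each), and this difference did not pass (adjusted p = 0.129). Col2a1, the fibril former of cartilage, had 12, 39 and 27 reads in si-Rbm22, against 28, 40 and 19 in si-Control, and did not pass either (adjusted p = 0.718). The sign of its log2 fold change of −0.19 turned to 0.09 without si-Control replicate 2 and to 0.14 without si-Rbm22 replicate 1. The rise of Col11a1 was thus not shared by Col2a1, its usual partner in cartilage, at a depth where Col2a1 had at most 40 reads in a library.

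Types XXIV and XXVII, less common fibrillar chains, fell as types I and V did. Col27a1 (ENSMUSG00000045672, chr4:63214004-63334991, plus strand) had 8.71, 7.03 and 7.08 CPM in si-Rbm22, against 32.0, 36.1 and 31.8 CPM in si-Control. It fell, with a log2 fold change of −2.13 (SE 0.107, adjusted p = 2.28e-10). Col24a1 averaged 0.631 ± 0.321 CPM in si-Rbm22 and 7.98 ± 1.04 CPM in si-Control, a log2 fold change of −3.65 (SE 0.301, adjusted p = 6.67e-08). Markers of mesenchymal cells, by contrast, were split. The higher sum of the smooth muscle and pericyte list in si-Control rested largely on Acta2, at 1247 ± 161 CPM in si-Rbm22 and 2488 ± 47.9 CPM in si-Control. Pdgfrb, at 54.5 ± 11.5 CPM in si-Rbm22 and 505 ± 23.6 CPM in si-Control, was lower too, as were Notch3, Cspg4 and Kcnj8. The other members, Myh11, Cnn1, Rgs5 and Abcc9, were higher in si-Rbm22. Among the fibroblast markers, Postn, Fbln2, Ddr2, Mfap5, Pdgfra and Fap were lower in si-Rbm22 and Tcf21, Thy1, Dcn and Dpep1 were higher. The cartilage and tendon list summed to 29.1 to 47.4 CPM in si-Rbm22, against 191 to 194 CPM in si-Control, with Sox9, Scx and Mkx lower and Acan and Hapln1 higher of 5 tested. Bone markers summed to 9.64 to 10.4 CPM in si-Rbm22, against 57.6 to 59.4 CPM in si-Control, with Runx2 and Dmp1 lower and Alpl higher of 3 tested. Their part in the fibrillar result was not tested.

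**Figure D3:**
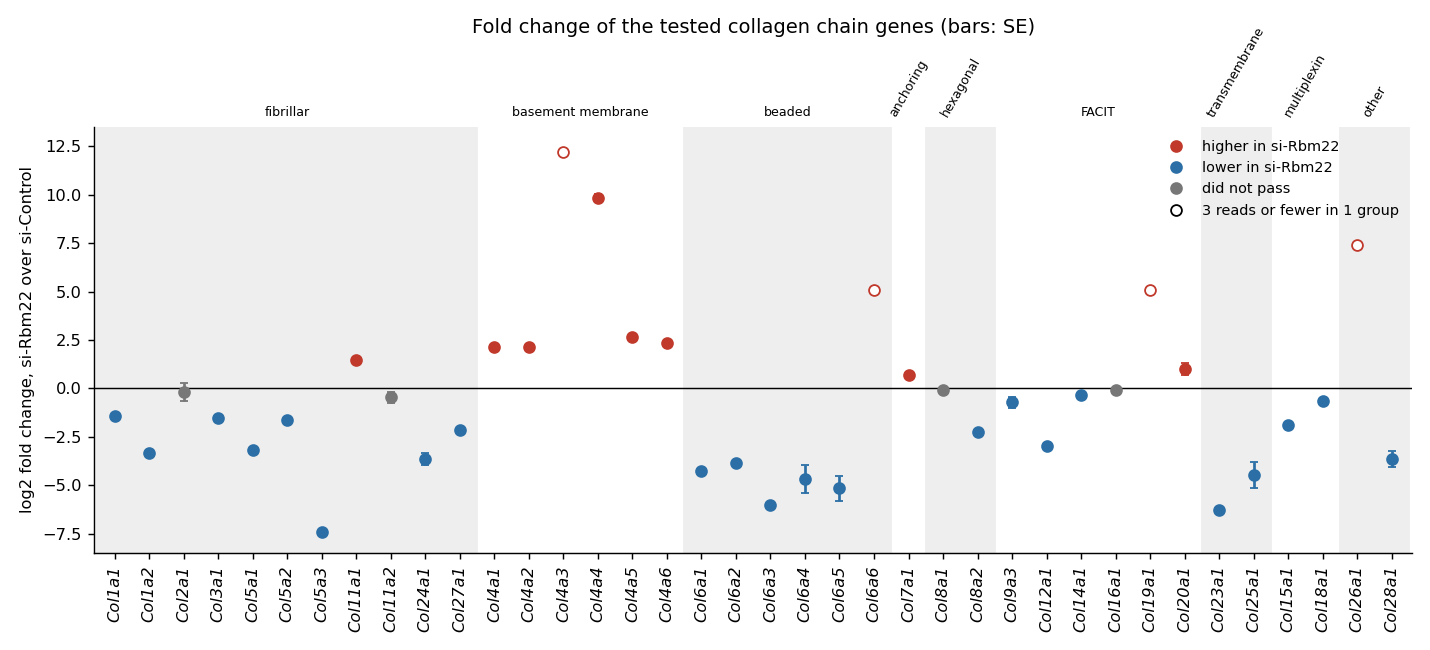
Log2 fold change (si-Rbm22 over si-Control) of the 38 tested collagen chain genes by class, with bars for the SE; red is higher in si-Rbm22, blue lower and grey did not pass. Open circles are genes with 3 reads or fewer in a group, drawn at the fitted value without a bar, since that value is no measured size; all 6 type IV genes lie above 2 and the main type VI genes below −3.

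Type VI, the beaded filament collagen found around nearly all connective tissue cells and between muscle fibres, fell most of the abundant classes. Of its 6 genes, 5 were lower, each by at least 4-fold, and 1 was higher. Their reads summed to 0.0253 ± 0.00357% of all reads in si-Rbm22 and 0.559 ± 0.0190% in si-Control (SD, n = 3 each), a share 22.1 times as large in si-Control. Col6a1 (ENSMUSG00000001119, chr10:76708792-76726168, minus strand), the α1 chain, had 115, 117 and 146 CPM in si-Rbm22, against 2436, 2501 and 2341 CPM in si-Control. This was a log2 fold change of −4.27 (SE 0.094, adjusted p = 4.3e-13). Col6a2 (ENSMUSG00000020241, chr10:76595762-76623630, minus strand), the α2 chain, had 96.5, 102 and 114 CPM in si-Rbm22, against 1538, 1562 and 1470.3 CPM in si-Control. It fell by 3.87 on the log2 scale (SE 0.074, adjusted p = 1.04e-14), and both genes were without overlap between groups. Col6a3 (ENSMUSG00000048126, chr1:90765923-90843971, minus strand), the large α3 chain that completes the standard trimer, had 18.9, 25.9 and 27.2 CPM in si-Rbm22, against 1609, 1642 and 1505 CPM in si-Control. Its log2 fold change was −6.04 (SE 0.133, adjusted p = 1.42e-11), larger than those of the other two chains of the trimer. Per kilobase of exon, Col6a1 ranked 9 among collagen genes in si-Rbm22 libraries and 3 in si-Control, and Col6a3 ranked 19 in si-Rbm22 and 8 in si-Control. The start region of Col6a3 (chr1:90843922-90844221, minus strand) is given as that of the type VI chain that fell most in this comparison. Neither CCAAT nor GGGCGG is in it. The window of Col6a1 also has neither, and those of Col6a2 have GGGCGG but not CCAAT.
Col6a3: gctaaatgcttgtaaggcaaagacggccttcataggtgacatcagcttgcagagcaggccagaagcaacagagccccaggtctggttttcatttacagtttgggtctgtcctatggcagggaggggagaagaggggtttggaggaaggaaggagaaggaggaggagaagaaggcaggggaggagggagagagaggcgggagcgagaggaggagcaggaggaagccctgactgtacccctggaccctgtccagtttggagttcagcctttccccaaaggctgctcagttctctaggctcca

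The other type VI chains, which can take the place of α3, were rare and did not move alike. Col6a5 had 0, 1 and 3 reads in si-Rbm22, against 58, 37 and 58 in si-Control, a ratio of 0.0254 (counting interval 0.00685 to 0.0665). Col6a4 had 5, 0 and 0 reads in si-Rbm22, against 60, 40 and 35 in si-Control, a ratio of 0.0361 (counting interval 0.0115 to 0.0862). All 5 of its si-Rbm22 reads came from replicate 1. Both were called lower (adjusted p = 4.25e-06 for Col6a5 and 4.19e-05 for Col6a4), and the size of either fall rests on few reads. Without si-Rbm22 replicate 3 the fitted log2 fold change of Col6a5 was −6.38 in place of −5.17, and without si-Rbm22 replicate 1 that of Col6a4 was −8.51 in place of −4.69. Col6a6 ran the opposite way, with 20, 12 and 16 reads in si-Rbm22, against 0, 1 and 0 in si-Control (ratio 46.7, counting interval 7.995 to 1883; adjusted p = 0.000111), and its fitted log2 fold change of 5.10 became 6.98 without si-Control replicate 2. The 3 genes are neighbours on chromosome 9 and run in the same direction, with gaps of 27917 and 28810 bases.

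FACIT collagens decorate fibrils. Of 9 genes, 6 were tested, 2 were higher, 3 lower and 1 did not pass. Beside 43.1% higher and 38.9% lower over all tested genes, nothing about the class can be read from that split. Col12a1 (ENSMUSG00000032332, chr9:79598991-79718831, minus strand), which links type I fibrils to the matrix around them, had 116, 127 and 121 CPM in si-Rbm22, against 982, 972 and 904 CPM in si-Control. It fell by 2.97 on the log2 scale (SE 0.063, adjusted p = 2.76e-14) and carried most of the class: FACIT reads made up 1.59 ± 0.0187% of collagen reads in si-Rbm22 and 3.02 ± 0.0460% in si-Control. Col14a1 (ENSMUSG00000022371, chr15:55307750-55520803, plus strand), its close relative on type I fibrils, had 11.4, 17.0 and 12.1 CPM in si-Rbm22, against 16.6, 18.1 and 17.1 CPM in si-Control. These values overlapped, and the small log2 fold change of −0.36 (SE 0.139, adjusted p = 0.0292) lost its call without si-Control replicate 1, 2 or 3 (adjusted p 0.0527 to 0.0795) and without si-Rbm22 replicate 1 (adjusted p = 0.0990). Without si-Rbm22 replicate 2, the highest of its group, it was −0.56 (adjusted p = 0.000256). Col16a1 (ENSMUSG00000040690, chr4:130047840-130099283, plus strand), found in several kinds of fibrils, had 52.4, 47.8 and 51.5 CPM in si-Rbm22, against 52.9, 52.7 and 54.2 CPM in si-Control. All 3 si-Rbm22 values were below all 3 si-Control values, yet the log2 fold change of −0.08 (SE 0.063) did not pass (adjusted p = 0.28).

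The other FACIT genes were low. Col20a1 averaged 2.29 ± 0.361 CPM in si-Rbm22 and 1.13 ± 0.192 CPM in si-Control, a log2 fold change of 1.01 (SE 0.301, adjusted p = 0.00664). Col19a1 had 21, 12 and 14 reads in si-Rbm22, against 1, 0 and 0 in si-Control (ratio 45.8, counting interval 7.82 to 1845; adjusted p = 0.000133). Both were called higher, and the fitted log2 fold change of Col19a1, 5.07, became 6.96 without si-Control replicate 1. Type IX, the FACIT of cartilage, gave 1 tested chain, Col9a3, at 1.56 ± 0.278 CPM in si-Rbm22 and 2.57 ± 0.170 CPM in si-Control (log2 fold change −0.72, SE 0.269, adjusted p = 0.0235). That call was lost without si-Control replicate 1 (adjusted p = 0.0536), si-Control replicate 3 (adjusted p = 0.0584) or si-Rbm22 replicate 3 (adjusted p = 0.0623). The value is also uncertain because 6.07% of the exonic length of Col9a3 is shared with the antisense gene Tcfl5 and the strand setting of the counting is not known. Col9a1 had 4, 12 and 22 reads in si-Rbm22, against 3, 1 and 1 in si-Control, Col9a2 had 13, 20 and 6 against 1, 0 and 0, and Col22a1 had 4, 10 and 5 against 0, 0 and 1. These 3 were too low to be tested.

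Type VIII, a hexagonal network known from the cornea and the vessel wall, had a chain that did not pass the test and another that fell. Col8a1 (ENSMUSG00000068196, chr16:57624258-57754737, minus strand) had 411, 479 and 522 CPM in si-Rbm22, against 488, 512 and 520.1 CPM in si-Control. The groups overlapped and the log2 fold change of −0.11 (SE 0.077) did not pass (adjusted p = 0.212). Without si-Rbm22 replicate 3, its highest library, the log2 fold change was −0.20 and passed (adjusted p = 0.00164). Col8a2 (ENSMUSG00000056174, chr4:126286793-126314330, plus strand) had 3.28, 4.11 and 3.92 CPM in si-Rbm22, against 18.1, 17.6 and 19.3 CPM in si-Control. It fell by 2.28 on the log2 scale (SE 0.129, adjusted p = 8.53e-10). With the collagen total lower, Col8a1 lifted the hexagonal class to 3.96 ± 0.429% of collagen reads in si-Rbm22, against 1.55 ± 0.0993% in si-Control. Col10a1, the chain of hypertrophic cartilage, had 7, 2 and 4 reads in si-Rbm22, against 1, 0 and 2 in si-Control, and was not tested.

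Among the 4 transmembrane collagens, both tested genes were lower. Col23a1 (ENSMUSG00000063564, chr11:51289920-51583918, plus strand) had 2.29, 1.31 and 2.29 CPM in si-Rbm22, against 152, 159 and 151 CPM in si-Control. Its log2 fold change of −6.29 (SE 0.129, adjusted p = 6.65e-13) was, among the falls with all libraries fitted, smaller only than that of Col5a3. Col25a1, whose shed ectodomain is found in the amyloid plaques of Alzheimer's disease, had 0, 6 and 1 reads in si-Rbm22, against 49, 43 and 68 in si-Control (ratio 0.0426, counting interval 0.0169 to 0.0898; adjusted p = 2.32e-05). Of its 7 si-Rbm22 reads, 6 were in replicate 2, without which the fitted log2 fold change was −6.47 in place of −4.48. Col17a1, a component of hemidesmosomes, had 1, 1 and 10 reads in si-Rbm22, against 9, 19 and 15 in si-Control. Col13a1 had 19, 39 and 5 reads in si-Rbm22, against 0, 0 and 0 in si-Control, which makes it at least 20.4-fold higher when 3 reads over the si-Control group are taken as the limit. Neither of these was tested.

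Both multiplexins, found at the basement membrane zone, were lower, unlike type IV. Col18a1 (ENSMUSG00000001435, chr10:77052178-77166548, minus strand), whose C-terminal fragment is endostatin, had 56.7, 57.1 and 56.3 CPM in si-Rbm22, against 94.1, 87.5 and 81.4 CPM in si-Control. The fall was small, with a log2 fold change of −0.63 (SE 0.064, adjusted p = 4.96e-07). Col15a1 (ENSMUSG00000028339, chr4:47208161-47313167, plus strand), which lies around muscle fibres and capillaries, had 6.85, 11.2 and 10.7 CPM in si-Rbm22, against 35.3, 41.4 and 31.4 CPM in si-Control. It fell by 1.91 on the log2 scale (SE 0.174, adjusted p = 2.68e-06). Col7a1, the chain of the anchoring fibrils that hold skin to its basement membrane, averaged 7.06 ± 0.545 CPM in si-Rbm22 and 4.44 ± 0.504 CPM in si-Control, a rise of 0.67 on the log2 scale (SE 0.162, adjusted p = 0.00164). The last members belong to none of these classes. Col28a1 averaged 0.447 ± 0.357 CPM in si-Rbm22 and 5.67 ± 0.877 CPM in si-Control, a log2 fold change of −3.66 (SE 0.407, adjusted p = 3.21e-06) that was −4.52 without si-Rbm22 replicate 1. Col26a1 had 25, 25 and 14 reads in si-Rbm22, against 0, 0 and 0 in si-Control, at least 20.8-fold higher with the limit of 3 reads (adjusted p = 5.13e-05).

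Chains that share a molecule or a start region were next compared within each library, where the scaling of libraries has no part. Ratios are of reads per exonic kilobase, on the log2 scale, for 9 pairs with at least 10 reads in every library. Col4a1 over Col4a2 was the ratio that stayed: 0.17 ± 0.031 in si-Rbm22 and 0.16 ± 0.025 in si-Control (SD, n = 3 each), with overlapping libraries and a difference of 0.0031 (exact permutation p = 0.8). In reads, Col4a1 stood at 1.25, 1.25 and 1.30 times Col4a2 in si-Rbm22, against 1.25, 1.25 and 1.29 times in si-Control. The pair therefore kept its proportion in every library while both of its genes rose. Col1a1 over Col1a2 did not: it was 2.16 ± 0.0611 in si-Rbm22 and 0.21 ± 0.0539 in si-Control, a difference of 1.95. With the longest transcript as the length, the means were 1.09 in si-Rbm22 and −0.86 in si-Control. The level of a ratio thus depends on the length used, while the difference between groups does not. In reads, Col1a1 was 2.41, 2.43 and 2.25 times Col1a2 in si-Rbm22, against 0.635, 0.605 and 0.589 times in si-Control, so the chain with more reads was the other one in each group.

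The ratios within type V and type VI moved as well. Col5a1 over Col5a2 was −1.09 ± 0.123 in si-Rbm22 and 0.44 ± 0.0649 in si-Control, a difference of −1.53. With the longest transcript as the length, the means were −1.61 in si-Rbm22 and −0.08 in si-Control. Col6a3 over Col6a2 was −2.65 ± 0.196 in si-Rbm22 and −0.47 ± 0.0203 in si-Control, a difference of −2.19. Col6a1 over Col6a2, whose genes are neighbours on chromosome 10, differed by −0.40, with 1.20 ± 0.0751 in si-Rbm22 and 1.60 ± 0.00765 in si-Control. The proportion of α1 to α2 in type VI thus differed less between the groups than that of α3 to α2. Col8a1 over Col8a2 was 6.16 ± 0.0962 in si-Rbm22 and 3.99 ± 0.0649 in si-Control, and Col11a1 over Col11a2 was 4.69 ± 0.152 in si-Rbm22 and 2.75 ± 0.459 in si-Control. Smaller differences were seen for Col4a5 over Col4a6, at 2.96 ± 0.113 in si-Rbm22 and 2.65 ± 0.108 in si-Control, and for Col3a1 over Col1a1, at −1.16 ± 0.0262 in si-Rbm22 and −1.02 ± 0.0739 in si-Control. In all pairs but Col4a1 and Col4a2 the groups did not overlap, and each exact permutation p was 0.1, the smallest possible (0.113 adjusted over the 9 ratios).

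**Figure D4:**
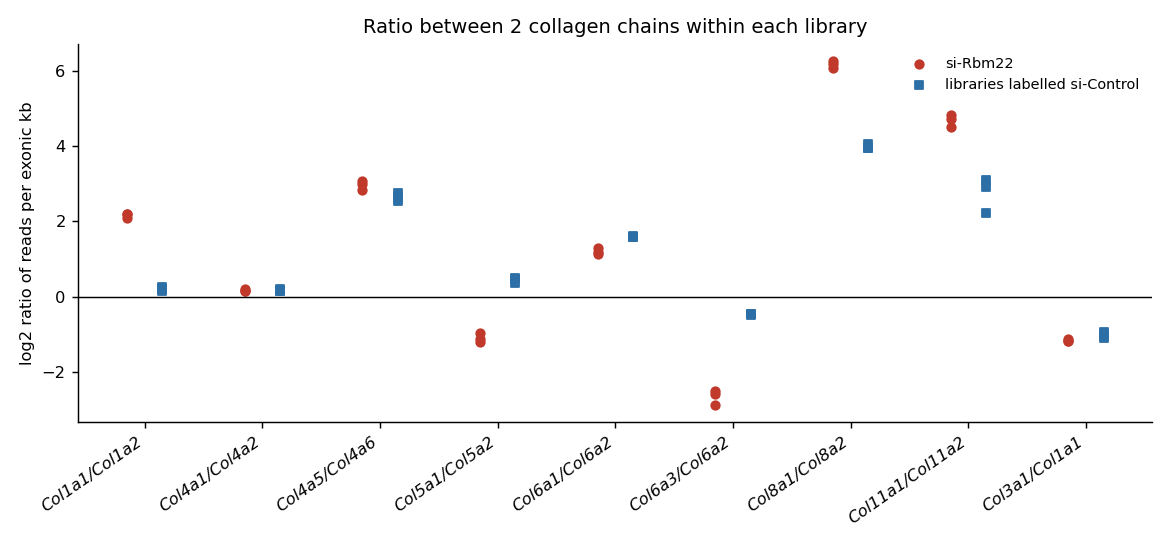
Log2 ratio of reads per exonic kilobase between paired collagen chains in each library, red circles for si-Rbm22 and blue squares for the libraries labelled si-Control. The 6 points of Col4a1/Col4a2 fall together near 0.17, whereas those of Col1a1/Col1a2 split into si-Rbm22 near 2.16 and si-Control near 0.21. The height of each pair on the axis depends on the gene lengths used, and the distance between groups does not.

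Genomic neighbours did not always move together. The 3 head-to-head type IV pairs rose as pairs, and Col3a1 and Col5a2, tail to tail with a gap of 24614 bases on chromosome 1, both fell, by 1.55 and 1.63 on the log2 scale. Col6a2 and Col6a1, 85161 bases apart, both fell too. In the row of Col6a6, Col6a5 and Col6a4 described above, the first was higher and the other two lower.

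Genes that act on collagen were then read from 5 lists, whose counts stand against 43.1% higher and 38.9% lower over all tested genes. Collagen chains are hydroxylated, folded and carried through the endoplasmic reticulum by a dedicated machinery. Of 27 such genes, 19 were lower, 6 higher and 2 did not pass, with a median log2 fold change of −0.72, against 0.05 over all tested genes. P4ha3, a subunit of prolyl 4-hydroxylase, averaged 5.75 ± 0.683 CPM in si-Rbm22 and 91.9 ± 3.93 CPM in si-Control, a log2 fold change of −3.998 (SE 0.089, adjusted p = 4.26e-14). Kdelr3, a receptor that returns proteins to the endoplasmic reticulum, averaged 16.1 ± 1.08 CPM in si-Rbm22 and 83.6 ± 3.61 CPM in si-Control (log2 fold change −2.38). P3h3, of the prolyl 3-hydroxylase family, averaged 19.1 ± 2.52 CPM in si-Rbm22 and 76.8 ± 2.53 CPM in si-Control (log2 fold change −2.01). Ppib, the prolyl isomerase cyclophilin B, averaged 165 ± 7.40 CPM in si-Rbm22 and 395 ± 7.97 CPM in si-Control (log2 fold change −1.26). All 4 were called, with adjusted p of 6.41e-11 or less.

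Enzymes trim the propeptides and crosslink the fibrils. Of 15 listed genes, 14 were in the table and 12 tested, of which 9 were lower and 3 higher (median log2 fold change −1.32). Adamts2, which cuts the N-propeptide of types I and III, averaged 50.6 ± 0.975 CPM in si-Rbm22 and 201 ± 11.5 CPM in si-Control (log2 fold change −1.99, adjusted p = 1.16e-12). Bmp1, which cuts the C-propeptide, averaged 116 ± 4.26 CPM in si-Rbm22 and 300.2 ± 18.8 CPM in si-Control (log2 fold change −1.37, adjusted p = 7.41e-11). Its relative Tll1 rose instead, with 19.3 ± 2.54 CPM in si-Rbm22 and 0.335 ± 0.0490 CPM in si-Control (log2 fold change 5.83, adjusted p = 3.46e-12). Loxl2, a lysyl oxidase that crosslinks type IV collagen, averaged 245 ± 7.37 CPM in si-Rbm22 and 17.1 ± 1.48 CPM in si-Control (log2 fold change 3.84, SE 0.073, adjusted p = 9.62e-15). It rose together with the type IV chains, while 9 genes of the same list fell.

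Proteins that organise fibrils were mostly lower, at 12 lower, 5 higher and 2 not passing of 19 tested (24 listed), with a median log2 fold change of −1.45. Fibromodulin (Fmod), a proteoglycan that binds type I fibrils, averaged 66.1 ± 6.37 CPM in si-Rbm22 and 404 ± 12.4 CPM in si-Control (log2 fold change −2.61). Osteoglycin (Ogn), of the same family, averaged 41.0 ± 4.15 CPM in si-Rbm22 and 621 ± 44.3 CPM in si-Control (log2 fold change −3.92). Matrilin 2 (Matn2), an adaptor protein of filament networks, averaged 17.9 ± 1.23 CPM in si-Rbm22 and 237 ± 6.33 CPM in si-Control (log2 fold change −3.73). Against these, tenascin X (Tnxb), which binds collagen fibrils and is lacking in a form of Ehlers-Danlos syndrome, averaged 20.4 ± 3.72 CPM in si-Rbm22 and 0.148 ± 0.0874 CPM in si-Control (log2 fold change 7.06). All 4 passed, with adjusted p between 6.41e-15 for Matn2 and 1.66e-11 for Tnxb.

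Of 13 receptors for collagen, 12 were in the table and 11 tested, with 6 lower, 4 higher and 1 not passing (median log2 fold change −0.38), a split from which nothing about the receptors can be read beside 43.1% higher and 38.9% lower over all tested genes. The discoidin domain receptors moved apart. Ddr1, which responds to type IV as well as fibrillar collagen, averaged 359.8 ± 19.7 CPM in si-Rbm22 and 139 ± 9.65 CPM in si-Control (log2 fold change 1.37, adjusted p = 1.44e-10). Ddr2, which responds to fibrillar collagen, averaged 78.9 ± 7.63 CPM in si-Rbm22 and 163 ± 9.27 CPM in si-Control (log2 fold change −1.05, adjusted p = 9.12e-09). The uptake receptor Mrc2 averaged 66.3 ± 9.99 CPM in si-Rbm22 and 219 ± 12.3 CPM in si-Control (log2 fold change −1.73, adjusted p = 1.48e-08). Cd44 averaged 80.3 ± 13.4 CPM in si-Rbm22 and 286 ± 2.84 CPM in si-Control (log2 fold change −1.83, adjusted p = 1.22e-08).

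The list of matrix regulators held 25 symbols, among them Ctgf and Cyr61, which are older names of the listed Ccn2 and Ccn1. In the table were 23 genes, and all but Sp7 were tested. Of the 22 tested, 9 were higher, 12 lower and 1 did not pass, with a median log2 fold change of −0.23. The share called higher was near the 43.1% of all tested genes, while the 12 of 22 called lower stand against 38.9%. The list as a whole was not tested, so these counts are no result about the regulators. Ccn2, a matrix protein induced by TGF-β and YAP, averaged 922 ± 127 CPM in si-Rbm22 and 24.8 ± 0.458 CPM in si-Control (log2 fold change 5.21, adjusted p = 2.78e-13). Sox6, a transcription factor of muscle and cartilage, averaged 42.5 ± 1.33 CPM in si-Rbm22 and 0.204 ± 0.0944 CPM in si-Control (log2 fold change 7.67, adjusted p = 3.62e-14). Mkx, which drives type I collagen in tendon, averaged 1.66 ± 0.431 CPM in si-Rbm22 and 50.4 ± 2.67 CPM in si-Control (log2 fold change −4.91, adjusted p = 3.1e-13). Prrx1, a homeobox factor of mesenchyme, averaged 28.3 ± 2.27 CPM in si-Rbm22 and 382 ± 9.85 CPM in si-Control (log2 fold change −3.75, adjusted p = 9.07e-15). Sox9, Scx and Mkx also stand in the cartilage and tendon marker list, Runx2 and Sp7 in that of bone and Tcf21 in that of fibroblasts, so the regulator list and the marker lists are not independent.

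**Figure D5:**
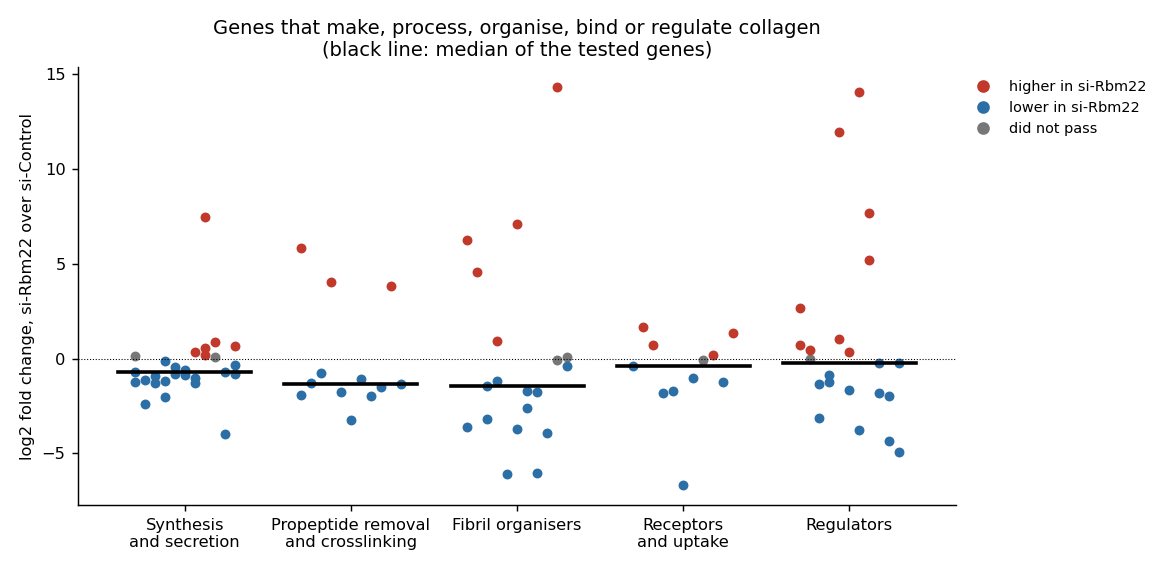
Log2 fold change (si-Rbm22 over si-Control) of each tested gene in the 5 lists of genes that act on collagen; red is higher, blue lower and grey did not pass, and the black line is the median of the list. The medians lie at −0.72, −1.32, −1.45, −0.38 and −0.23 from left to right, and genes with 0 reads in si-Control (such as Colgalt2, Thbs4, Tcf21 and Twist1) are drawn at fitted values that are no measured size.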

How the data were processed

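RNA was sequenced from 6 cultures, 3 per group, grouped by the sample titles. Per the submitters' processing notes, fastp, HISAT2, HTSeq and DESeq2 were used with build GRCm38. The sources used here give no versions, annotation release or strand setting. The authors deposited raw counts, whole reads per Ensembl gene, with no normalization. Of 18951 identifiers, 18868 matched GENCODE M21, which gave symbols, positions and exon lengths; the other 83 stayed in the tests unnamed. Intervals and limits cover counting error only.

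The collagen genes and the lists of partner genes and cell markers were chosen with earlier results of these data known. Every collagen gene is accounted for: those of at least 10 CPM in a group are named with each library's value, and the others with means or reads. Each partner list names the 4 genes with the smallest p among those of at least 5 CPM in a group. Genes were tested with edgeR 4.0.16 in R 4.3.3 (quasi-likelihood, robust, TMM, filterByExpr, group as the only term), fitted on the whole table with Benjamini-Hochberg adjustment, and the code was tested on simulated data. The SE is the log2 fold change over the square root of F, and can be smaller than counting error where a group has few reads. Ratios of summed reads carry exact conditional (Clopper-Pearson) intervals. A count of 0 was taken as up to 3 reads over the group. Exonic length is the union of a gene's exons. DESeq2 1.42.0, limma 3.58.1 (voom), other scalings, filters, a replicate block and each library left out were the alternatives. Promoter windows are from RefSeq (GRCm38.p6). No pair of libraries agreed within sampling noise.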

Additional observations from a re-analysis of the deposited data

How the results depend on the processing

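Over 17 alternatives the count of collagen genes called higher ran between 7 and 16 and that called lower between 15 and 23, against 12 and 22. The 7 came with a filter of at least 10 CPM in 3 libraries, which by its construction leaves out rare genes and those expressed in fewer libraries, and DESeq2 and the fit without a filter, which admits more rare genes, each gave 16. With each library left out in turn the counts were 12 to 15 higher and 20 to 23 lower. The difference in the share of collagen reads, −2.25 percentage points, ran between −2.33 and −2.20 over its alternatives, which were the libraries left out and the other totals. The difference in the Col4a1/Col4a2 ratio ran between −0.01478 and 0.01724 with a library left out and changed sign without si-Rbm22 replicate 3 (−0.01478), si-Control replicate 1 (−0.002306) or si-Control replicate 2 (−0.005643). Col2a1, never called, ran between −0.63 and 0.14 with a library left out and reversed without si-Control replicate 2 (0.09) and without si-Rbm22 replicate 1 (0.14), and the cause was not tested. The call of Col14a1 was also lost with the 10 CPM filter (adjusted p = 0.0550), and those of Col14a1 and Col9a3 at an adjusted p under 0.01. Among the tested members, the calls of all but Col14a1, Col9a3 and Col8a1 were on the same side of the threshold in every alternative in which they were fitted. The other chain ratios and the counts in the partner lists kept their direction, or stayed within 1.5 times, in every alternative run. The median log2 fold change of all genes moved between 0.02 and 0.07 with the scaling, and that of the collagen genes between −1.10 and −1.05. With other tests, filters and libraries, which change the members tested, the collagen median lay between −1.51 (25 members with the 10 CPM filter) and −0.54 (44 with DESeq2). Same-numbered libraries of the groups did not deviate together (correlations −0.0147, 0.0239 and 0.0593), so the numbers do not pair them. With the replicate block, 12 collagen genes were higher, 21 lower and 11945 genes passed in all, and Col9a3 alone among collagen genes changed its call (adjusted p = 0.0529). Members below 1 CPM are limited by depth.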

Other observations

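The proteins that share basement membranes with type IV collagen were mixed. A list of 16 genes (laminin chains, nidogens, perlecan, agrin and peroxidasin), chosen after the collagen values were seen and given as values without a test, summed to 4564 to 5100 CPM in si-Rbm22 libraries, against 4129 to 4474 CPM in si-Control libraries. Lamc1, the laminin γ1 chain of most basement membranes, had 874, 865 and 799.5 CPM in si-Rbm22, against 401, 398 and 381 CPM in si-Control. Lama2, the laminin chain of muscle, had 184, 185 and 138 CPM in si-Rbm22, against 54.1, 60.9 and 53.4 CPM in si-Control. Those were the higher members. Lama4, the laminin chain of vessels, had 89.3, 92.9 and 86.3 CPM in si-Rbm22, against 244, 262 and 256 CPM in si-Control. Hspg2, which encodes perlecan, had 1273, 1214 and 934 CPM in si-Rbm22, against 1278, 1262 and 1143 CPM in si-Control, and its groups overlapped. Pxdn, whose product crosslinks type IV collagen, had 306, 301 and 293 CPM in si-Rbm22, against 311, 327 and 302 CPM in si-Control, and Nid2 had 628, 609 and 659 CPM in si-Rbm22, against 670.0, 691 and 619 CPM in si-Control. The values of Pxdn and of Nid2 overlapped between the groups, whereas Col4a1 and Col4a2 differed more than 4-fold.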
